A study of Homo sapiens with 20 samples.

Results

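Metallothioneins are short, cysteine-rich proteins that bind zinc and copper ions in the cell and trap toxic metals such as cadmium. Their genes sit side by side on the long arm of chromosome 16 and are switched on by the metal-sensing transcription factor MTF1, which binds short metal response elements in their promoters, and also by glucocorticoids and oxidants. In tumours the CpG-rich promoters of several of these genes are often methylated, which makes the cluster a natural place to look after a drug that depletes DNA methyltransferases. The genes described here are the rows of the expression table with the symbols MT1E, MT1F, MT1G, MT1H, MT1M, MT1X and MT2A, 7 of the 36076 genes in the table. They were chosen by symbol, with earlier results of these data known.

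The study treated human lung cancer cell lines with decitabine (DAC), a cytidine analog that depletes DNA methyltransferases, at 100 nM for 72 hours, and then kept the cells for 3 days without drug. Mock cells received phosphate-buffered saline. Messenger RNA was sequenced in 12 libraries, 1 Mock and 1 DAC library for each of A549, CL1-0, CL1-5, PC9, H1299 and H1792, and open chromatin was mapped by Omni-ATAC-seq in 8 libraries from A549, CL1-5, PC9 and H1299. All are established lines, and each line and treatment is 1 library with no replicate, so lines were the replicates in every test. In the main test p-values measure how far the difference between DAC and Mock varied between lines.

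All 7 genes lie on chromosome 16 (GRCh37, GENCODE positions) within 75.6 kb. MT2A is at 56642496 to 56643409, MT1E at 56659387 to 56661024, MT1M at 56666571 to 56667893 and MT1F at 56691643 to 56694610. MT1G is at 56700642 to 56701977, MT1H at 56703726 to 56705041 and MT1X at 56716382 to 56718108. MT1G is on the minus strand and the other 6 are on the plus strand. The canonical transcripts have 3 exons each, except that of MT1E, which has 2, and they are between 397 and 746 bases long. The coding sequences are printed below because their likeness decides how well reads can be assigned to 1 gene. They were read from the GENCODE transcripts of GRCh37, from the start codon to the stop codon. Capitals mark each base that differs from the base most common among the 7 genes at that place of the alignment. Bases tied for most common, and bases of MT1G with no counterpart in the other genes, are in lower case.

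MT2A: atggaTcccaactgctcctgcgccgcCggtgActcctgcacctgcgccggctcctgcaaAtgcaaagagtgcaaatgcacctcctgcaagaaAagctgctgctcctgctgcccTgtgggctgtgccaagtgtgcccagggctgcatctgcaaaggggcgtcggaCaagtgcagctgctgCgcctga
MT1X: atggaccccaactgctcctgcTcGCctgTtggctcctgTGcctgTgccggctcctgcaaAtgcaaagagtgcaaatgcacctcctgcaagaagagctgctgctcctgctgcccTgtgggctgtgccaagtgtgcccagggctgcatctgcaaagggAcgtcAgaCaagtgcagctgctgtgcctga
MT1G: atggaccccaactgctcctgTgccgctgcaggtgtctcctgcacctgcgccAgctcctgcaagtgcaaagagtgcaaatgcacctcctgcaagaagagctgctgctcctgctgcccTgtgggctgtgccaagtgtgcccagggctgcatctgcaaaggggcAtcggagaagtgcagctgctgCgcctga
MT1F: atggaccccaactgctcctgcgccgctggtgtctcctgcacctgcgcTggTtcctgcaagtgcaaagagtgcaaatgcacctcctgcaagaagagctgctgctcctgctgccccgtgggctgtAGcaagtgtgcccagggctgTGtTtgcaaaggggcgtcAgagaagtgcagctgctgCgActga
MT1E: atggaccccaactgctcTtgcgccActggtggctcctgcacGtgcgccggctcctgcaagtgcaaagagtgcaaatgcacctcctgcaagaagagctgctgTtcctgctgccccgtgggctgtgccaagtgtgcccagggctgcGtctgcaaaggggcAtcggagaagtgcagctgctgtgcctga
MT1M: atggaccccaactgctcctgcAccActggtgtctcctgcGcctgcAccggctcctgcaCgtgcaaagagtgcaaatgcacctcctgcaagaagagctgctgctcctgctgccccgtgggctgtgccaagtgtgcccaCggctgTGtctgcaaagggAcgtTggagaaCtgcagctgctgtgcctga
MT1H: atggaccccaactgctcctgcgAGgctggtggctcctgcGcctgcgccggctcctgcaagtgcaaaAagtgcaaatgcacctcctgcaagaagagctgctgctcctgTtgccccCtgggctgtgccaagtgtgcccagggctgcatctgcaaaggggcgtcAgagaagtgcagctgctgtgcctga

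Each coding sequence is 186 bases long except that of MT1G, which is 189. Of the 189 columns of the alignment, 43 differed in at least 1 gene. The 21 pairs shared between 88.7% of their bases (MT1F and MT1X, 21 differences) and 95.2% (MT1G and MT2A, 9 differences). MT1X carried the most bases off the common base, 12, and MT1G the fewest, 5, not counting the extra bases that make it longer. The whole transcripts, untranslated ends included, were then searched for exact matches. Of the 50-base windows of each canonical transcript, 6.12% in MT1F, 10.3% in MT1E, 11.1% in MT2A, 14.6% in MT1M, 19.9% in MT1G and 20.4% in MT1H were also found in a transcript of another gene. In MT1X the share was 51.0%, with a longest run of 166 bases shared with the transcript of an overlapping gene (ENSG00000259827). A read inside such a stretch fits more than 1 gene, and how the authors placed such reads is not given in the sources used here, so single-gene values below carry that limit.

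RefSeq promoter sequences (GRCh38.p14, 300 bases from 250 before to 50 after the start) were held for 3 of the 7 genes, MT1H, MT1X and MT2A. They are shown because MTF1 acts through such elements, and because open chromatin was found over the starts of MT2A and MT1X in all 8 accessibility libraries and over that of MT1H in none. Capitals mark every match to the core metal response element, searched as TGCACNC and TGCGCNC on both strands, and only the 250 bases before the start are printed. The intervals are chr16:56669564-56669813 for MT1H, chr16:56682220-56682469 for MT1X and chr16:56608334-56608583 for MT2A, all on the plus strand.

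MT2A: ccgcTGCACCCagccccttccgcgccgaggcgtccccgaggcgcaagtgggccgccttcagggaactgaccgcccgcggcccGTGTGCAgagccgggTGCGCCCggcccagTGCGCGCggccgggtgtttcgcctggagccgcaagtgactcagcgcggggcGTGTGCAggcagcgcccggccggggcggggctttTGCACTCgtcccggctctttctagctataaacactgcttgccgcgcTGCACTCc
MT1X: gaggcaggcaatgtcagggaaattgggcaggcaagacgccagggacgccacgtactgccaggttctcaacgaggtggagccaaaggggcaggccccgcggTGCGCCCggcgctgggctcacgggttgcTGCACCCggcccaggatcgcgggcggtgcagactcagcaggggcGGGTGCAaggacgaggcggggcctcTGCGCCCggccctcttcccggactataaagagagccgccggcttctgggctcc
MT1H: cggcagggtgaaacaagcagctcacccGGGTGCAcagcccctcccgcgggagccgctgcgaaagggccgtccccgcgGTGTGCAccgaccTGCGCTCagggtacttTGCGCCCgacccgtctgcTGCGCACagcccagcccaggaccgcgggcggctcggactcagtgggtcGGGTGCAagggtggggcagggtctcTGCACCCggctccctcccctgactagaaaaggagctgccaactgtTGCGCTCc

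The 300 bases held 8 matches in MT2A, 8 in MT1H and 4 in MT1X. Of 35116 RefSeq promoters of this length, 29.6% held 1 match or more and 2.30% held 3 or more. MT2A had 37 CpG dinucleotides, MT1X 26 and MT1H 25, against a median of 14 over all promoters. So the promoter of MT1H, a gene with reads almost only in H1299, and that of MT2A, the gene with the highest level in every library, held the same number of matches.

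Reads per gene could be recovered from the table as whole numbers, because the authors' mean normalized count and FPKM (fragments per kilobase of transcript, scaled for library depth) give each gene's scale. They summed to between 22234485 and 25303899 reads in 10 libraries and to 59735913 (Mock) and 52634234 (DAC) in H1299. The H1299 pair stood apart in other ways too. Of its genes with 1 to 20 reads, 81.9% to 85.5% had an even number, against 39.2% to 41.5% elsewhere, so its counting intervals were taken on halved reads. Processed pseudogenes took 1.42% to 1.57% of its reads and at most 0.227% in the other lines, and results that rest on H1299 are given with and without it. The accessibility libraries labelled CL1-5 and PC9 went against their labels. Of 106 genes at 5 FPKM or more in Mock CL1-5 and at most 0.1 in Mock PC9, 16 carried a start-site peak in Mock cells labelled CL1-5 and 70 in those labelled PC9, and of 173 genes with the opposite pattern, 20 had one in the library labelled PC9 and 133 in that labelled CL1-5. For A549 and H1299 the same check followed the labels (136 of 269 against 50, and 51 of 177 against 16). These libraries are therefore called by their labels, and the results that change line when the 2 are exchanged are given both ways. Of the markers of epithelium (EPCAM, KRT8, KRT18, KRT19 and CDH1), the summed level ran from 0.986 FPKM in Mock CL1-0, where all 5 were under 1 FPKM and KRT19 was at 0, to 3015 FPKM in Mock A549. Summed markers reached at most 7.50 FPKM for blood cells (CD14 in DAC A549), 1.74 for endothelium and 92.2 for fibroblasts (COL1A1 in DAC H1792).

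MT2A, one of the most widely expressed metallothioneins, was the highest of the 7 genes in every library. It made up 53.5% to 97.0% of their summed FPKM, and 64.9% to 98.2% when levels were set on the length of the canonical transcript in place of all annotated exons. In Mock cells MT2A was at 308 FPKM in H1792, 236 in CL1-5, 184 in H1299, 97.6 in PC9, 48.6 in A549 and 24.5 in CL1-0. The counting intervals (95%, exact Poisson on recovered reads, covering counting error only) of neighbours in this order did not overlap. The pair CL1-0 and CL1-5, which share their name stem, lay at the low and near the high end. In bulk RNA a lower level per cell and fewer expressing cells cannot be told apart.

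The other 6 genes were much lower and fell into different patterns over the lines. MT1X was detected in every library, at 1.18 to 7.16 FPKM in Mock, highest in CL1-5 (7.16) and CL1-0 (5.30) and lowest in H1792 (1.18). MT1G was at 2.096 to 4.48 FPKM in 5 Mock lines and at 50.6 in H1299. MT1F was at 7.05 FPKM in H1299, 1.95 in A549, 1.04 in PC9, 0.938 in CL1-5, 0.336 in CL1-0 and 0.0854 in H1792, the last from 4 reads. Several neighbours in these orders did not differ beyond their counting intervals, namely PC9, H1299 and H1792 for MT1X, PC9 and CL1-5 as well as CL1-0 and H1792 for MT1F, and each neighbouring pair for MT1G but H1299 and CL1-5.

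MT1E, MT1M and MT1H had no read in several lines. MT1E in Mock was at 19.6 FPKM in H1299, 5.13 in H1792 and 0.366 in PC9 (8 reads), and had 0 reads in A549, CL1-0 and CL1-5. MT1M in Mock was at 11.7 FPKM in H1299 and 0.899 in H1792 and had 0 reads in the other 4 lines. MT1H in Mock was at 28.6 FPKM in H1299 and had 0 reads in the other 5. The floor that 3 reads set for MT1E was 0.105 FPKM in CL1-5, so a level under that was not detectable at this depth. All 7 genes had more than 3 reads in both H1299 libraries, but 4 to 6 of them did so in the other lines.

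Whether DAC and Mock differed over the 5 lines other than H1792, which are those the study compared, was tested with limma on log2(FPKM + 0.1), each line serving as its own block. Over 22603 genes with a mean of at least 0.1 FPKM, 27 were higher after DAC (0.119% of genes tested) and 0 were lower (0%) at an adjusted p under 0.05. Without adjustment 1825 genes had p under 0.05 with a higher value after DAC and 994 with a lower one, and limma voom on the recovered reads called 178 higher and 1 lower. All 7 metallothionein genes passed the filter, and 0 of 7 passed the test, with 4 of 7 at an unadjusted p under 0.05 in limma (12.5% of all genes) and 2 of 7 (13.7% of all genes, 0 members past the threshold) in voom. Of the 4 members with reads in all 12 libraries, MT1F was near 0 and the other 3 had negative estimates. MT1X differed by -0.74 (SE 0.15, limma adjusted p = 0.181), MT1G by -0.58 (SE 0.17, limma adjusted p = 0.289) and MT2A by -0.58 (SE 0.24, limma adjusted p = 0.391) on the log2 scale. MT1E had the highest estimate, 2.0 (SE 0.81, limma adjusted p = 0.384), and MT1M followed at 0.44 (SE 0.34). Both estimates depended on the pseudocount, at 0.77 and 0.0044 with a pseudocount of 1 and 3.71 and 1.49 with 0.01, and were 1.27 and 0.14 in voom, while MT1M was at 0.13 without CL1-5. MT1F and MT1H were at -0.01 each in limma, and at -0.18 and -0.49 in voom. The limma value of MT1H joins a ratio of 0.595 in H1299 with lines at 0 reads or, in DAC PC9, 1 read. The median log2 difference over all genes was 0.07, small beside the values of MT1X, MT1G, MT2A and MT1E but not beside those of MT1F and MT1H. After rescaling to a common sum it was 0.17, with MT1X at -0.63 and MT1G and MT2A at -0.46 each.

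MT2A, which sets most of the summed level, went in different directions in different lines. It was at 48.6 FPKM in Mock A549 and 22.7 after DAC, a ratio of 0.467 (95% counting interval 0.426 to 0.511). H1299 went from 184 to 85.8 FPKM (interval of the ratio 0.447 to 0.487), PC9 gave 97.6 to 64.7 and CL1-0 gave 24.5 to 15.8. In CL1-5 the DAC value was above Mock, 338 against 236 FPKM (ratio 1.44, interval 1.40 to 1.48), and in H1792 the values were 318 and 308. So 4 of 6 lines had a lower MT2A value after DAC and 2 a higher one, of which H1792 turned to a ratio below 1 when libraries were rescaled to a common sum (0.919). Without CL1-5 the limma estimate was -0.85 (adjusted p = 0.292) against -0.58 with it.

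MT1X, also a broadly expressed gene, was lower after DAC in 6 of 6 lines. The values were 3.79 and 1.61 FPKM in A549, 5.30 and 2.91 in CL1-0, 7.16 and 4.62 in CL1-5, 2.01 and 1.34 in PC9, 1.73 and 1.17 in H1299 and 1.18 and 0.940 in H1792. The ratios ran from 0.424 in A549 to 0.795 in H1792, all below 1 after rescaling too, and the counting interval included 1 in H1792 alone (0.513 to 1.22). In CL1-5, then, MT1X was below Mock while MT2A was above it. MT1X shares much of its transcript with an overlapping gene, as described, and how many of its reads belong there was not tested.

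MT1G was lower after DAC in 5 of 6 lines, with ratios of 0.493 in A549 (2.68 to 1.32 FPKM), 0.685 in CL1-0 (4.01 to 2.75), 0.624 in PC9 (2.31 to 1.44), 0.559 in H1299 (50.6 to 28.3) and 0.742 in H1792 (2.096 to 1.56). In CL1-5 it was at 4.48 and 4.78 FPKM, a ratio of 1.07 that became 0.985 after rescaling. The counting intervals of PC9, H1792 and CL1-5 included 1. MT1F divided the lines evenly, higher after DAC in CL1-5 (0.938 to 1.48 FPKM), PC9 (1.04 to 1.97) and H1792 (0.0854 to 0.265, 4 and 12 reads) and lower in A549 (1.95 to 1.15), CL1-0 (0.336 to 0.268) and H1299 (7.05 to 4.77).

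MT1E, a gene with no reads in 3 Mock lines, had higher values after DAC in 5 of 6 lines. In the 3 lines with no Mock reads a lower value after DAC was not possible. The share of all genes with no Mock reads that had reads after DAC was not counted. In CL1-5 MT1E had 0 reads in Mock and 156 after DAC, 6.11 FPKM, at least 58.0-fold higher than the 3-read floor of the Mock library. In PC9 it was at 0.366 FPKM (8 reads) and 1.85 (45 reads), a ratio of 5.05 with a counting interval of 2.36 to 12.4. In H1792 it was at 5.13 and 17.9 FPKM, a ratio of 3.49 (2.88 to 4.27). The higher value was at the edge of detection in A549 (0 and 6 reads) and CL1-0 (0 and 2 reads). In H1299, the line with the most MT1E in Mock, it was at 19.6 and 14.5 FPKM (ratio 0.737, interval 0.648 to 0.838). Without CL1-5 the limma estimate of MT1E was 1.01 (adjusted p = 0.420), and without H1299 it was 2.61 (adjusted p = 0.380).

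MT1M and MT1H stayed near 0 outside H1299 and H1792. MT1M was at 11.7 and 8.72 FPKM in H1299 and 0.899 and 1.46 in H1792, with 5 reads in DAC CL1-5, 2 in DAC PC9 and 0 in the other 6 libraries. MT1H was at 28.6 and 17.04 FPKM in H1299, had 1 read in DAC PC9 and had 0 in the other 9 libraries. MT1H was thus not detectable at this depth after DAC in A549, CL1-0, CL1-5 or H1792. Without H1299 both genes were under the filter on mean FPKM, and 0 of the 5 genes left passed the test.

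A difference of at least 2-fold in a line, on the log2(FPKM + 0.1) scale and among genes with a mean of at least 0.1 FPKM in that line, was read against its share over all genes, since 1 library a group allows no test. In A549, 1 of 5 measured genes was 2-fold higher (MT1E, 18.1% of all genes) and 2 of 5 were 2-fold lower (MT1X and MT2A, 7.37%), neither of them after rescaling to a common sum (ratios of 0.539 and 0.594). In CL1-0 no gene of 4 passed either limit (9.32% higher and 2.79% lower over all genes). In CL1-5, 2 of 6 were higher (MT1E and MT1M, 8.35%) and 0 lower (6.45%). In PC9, 1 of 5 was higher (MT1E, 12.3%) and 0 lower (3.99%), and in H1792, 1 of 6 was higher (MT1E, 12.9%) and 0 lower (7.46%). After rescaling, MT1F in PC9 was at a ratio of 2.12, against 1.88 before. In H1299, 0 of 7 were higher (12.9%) and 1 was lower (MT2A, 4.71%). All 7 were below Mock there, where the median log2 difference over all genes was 0.088. The share of all genes below Mock was not counted, so this count has no background to be read against. Reads in sequence shared by these genes fit more than 1 of them. MT1E thus made up 4 of the 5 gene and line pairs at 2-fold higher before rescaling. A gene with 0 FPKM in Mock passes the filter on the mean only at a DAC value that is also past the 2-fold limit. The filter therefore fixed the call for MT1E in A549 and CL1-5 and for MT1M in CL1-5, as it did for such genes among all genes. The pairs MT1E in A549 and MT1M in CL1-5 rest on 6 and 5 reads, which are at least 1.69-fold and 1.86-fold above the 3-read floor of Mock.

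The summed level of the 7 genes followed MT2A in most lines. Its values in Mock and DAC cells were 57.1 and 27.0 FPKM for A549, 34.2 and 21.8 in CL1-0, 248 and 356 in CL1-5, 103 and 71.4 in PC9, 303 and 160.2 in H1299 and 317 and 340.0 in H1792. The ratios were 0.473, 0.638, 1.43, 0.691, 0.528 and 1.07 in that order. Leaving MT2A out turned the direction in PC9 (5.73 to 6.75 FPKM, ratio 1.18) and raised the ratio in H1792 to 2.36 (9.40 to 22.2 FPKM). MT1E went from 1.62% to 5.28% of the sum in H1792 and from 0.354% to 2.59% in PC9. H1299 had the most mixed make-up, with MT1G at 16.7% and MT1H at 9.45% of the sum in Mock.

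**Figure D1:**
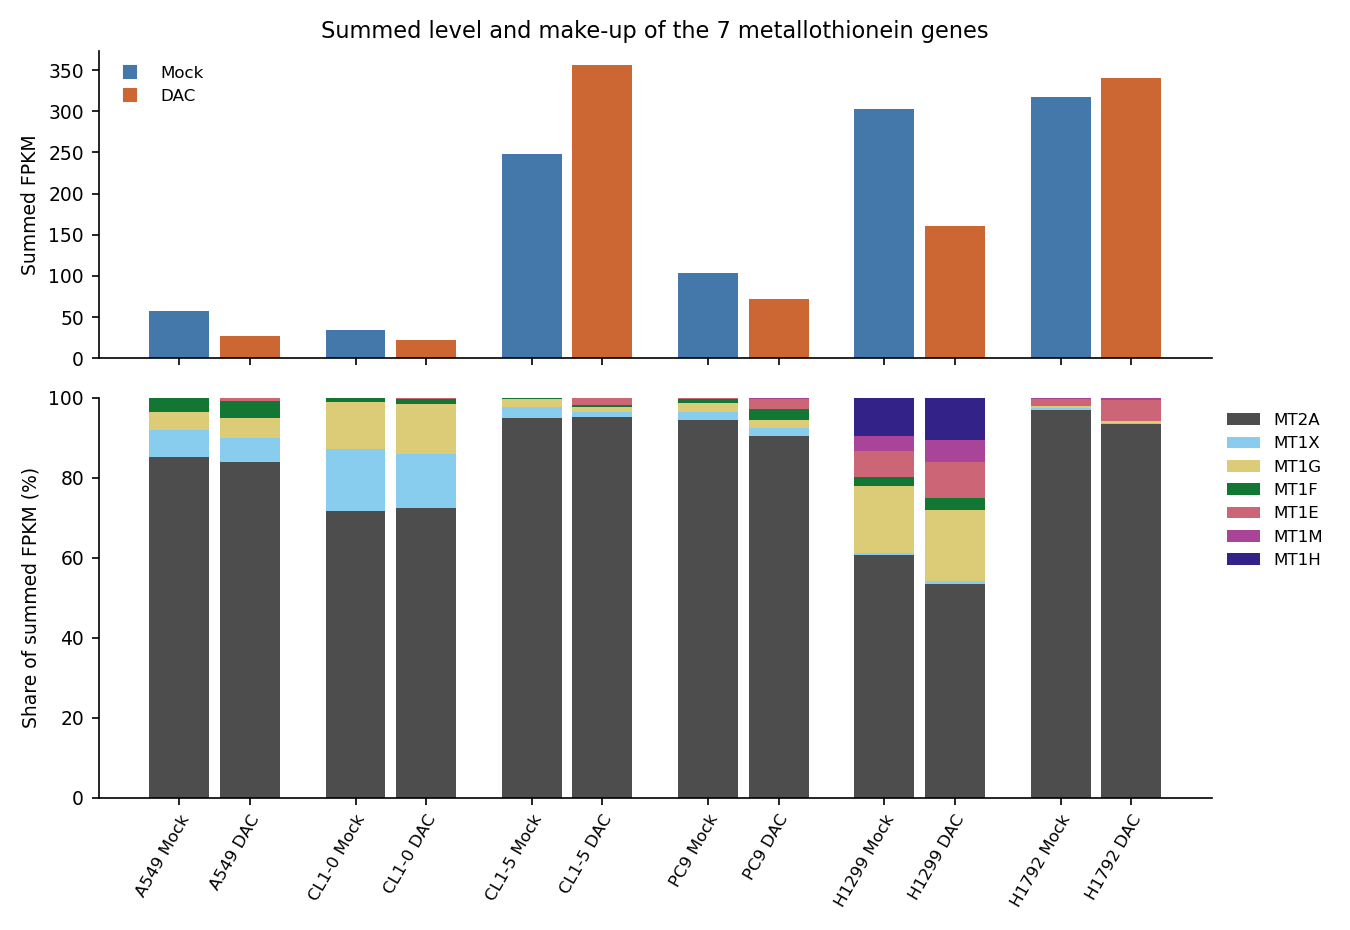
Summed FPKM of the 7 metallothionein genes in each library (top) and the share of each gene in that sum, in percent (bottom). The sum is lower after DAC in A549, CL1-0, PC9 and H1299 and higher in CL1-5 and H1792, and MT2A takes 53.5% to 97.0% of it.

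Of 16 other metallothionein loci looked for, 5 were in the table, MT1A, MT1HL1, MT1JP, MT1L and MT3. MT1L, annotated as a transcribed pseudogene 5′ of MT1E, went the way of MT1E, with 0 and 22.8 FPKM in CL1-5 (0 and 228 reads, at least 84.8-fold higher), 0 and 3.57 in PC9 (at least 10.2-fold higher), 71.2 and 166 in H1792 and 56.4 and 37.4 in H1299. Over the 12 libraries log2(FPKM + 0.1) of MT1E and MT1L had a Pearson correlation of 0.967, and 0.966 over the 10 without H1299, with libraries at 0 in both genes among the points. MT1E shared no 50-base window with the annotated MT1L transcript. That transcript is 186 bases long, against 411 bases behind the FPKM of MT1L. Whether the 2 genes share reads outside it was not tested. MT1HL1, an intronless copy on chromosome 1, had reads in H1299 alone (45.0 and 28.3 FPKM), as MT1H did, and the pair shares a run of 109 bases, so reads in that run fit both. MT1A was at 55.4 and 33.5 FPKM in H1299, 20.3 and 20.7 in PC9, 3.89 and 3.19 in A549, 0 and 1.98 in CL1-5 (at least 7.07-fold higher) and 0 and 3.37 in H1792 (at least 11.03-fold higher), with 0 reads in CL1-0. Of the 4 loci tested, 0 passed in limma or voom and 0 had an unadjusted p under 0.05, with MT1L highest (2.80) and MT1HL1 lowest (-0.13), with a median log2 difference of 0.38 against 0.07 over all genes.

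Genes that sense or carry the same metals gave no calls. Of 9 tested genes of metal sensing and zinc export, 0 passed in limma and 1 had an unadjusted p under 0.05. It was SLC30A1, the zinc exporter of the plasma membrane and another target of MTF1, at a log2 difference of 0.50 (SE 0.17, limma adjusted p = 0.333) with higher values in the 5 lines of the fit and a lower one in H1792 (15.2 to 12.7 FPKM), while MTF1 itself was at 0.18 (SE 0.15) and SLC30A3 was lowest at -0.14. The median of this list was 0.11, against 0.07 over all genes.

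Of 11 zinc importers tested, 0 passed in limma or voom and 0 had an unadjusted p under 0.05, with SLC39A8 highest (0.40) and SLC39A11 lowest (-0.28) and a median of -0.03. Of 11 copper-handling genes, 0 passed and 1 had an unadjusted p under 0.05, the metalloreductase gene STEAP3 (-0.44, SE 0.16, limma adjusted p = 0.347), with ATP7A highest (0.05) and a median of -0.12. Glucocorticoids also act on metallothionein promoters. Of 9 glucocorticoid-response genes, 0 passed in limma or voom and 0 had an unadjusted p under 0.05, with DUSP1 highest (0.65) and PER1 lowest (-0.12) and a median of 0.12. Of 9 genes of heavy metal and oxidant stress the same counts were 0 and 0, with HSPH1, a heat shock protein, highest (0.37) and SLC7A11, the cystine importer, lowest (-0.15) and a median of 0.10.

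Genes around the cluster were tested as well. Of 11 tested, 0 passed in limma, 1 had an unadjusted p under 0.05 and 1 passed in voom. This was SLC12A3, the kidney sodium chloride cotransporter, at 2.79 (SE 0.73, limma adjusted p = 0.260 and voom adjusted p = 0.0451) with higher values after DAC in 5 of 5 lines, at 5.30 FPKM or less. BBS2 was lowest (-0.35), and the median was -0.03.

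The genes whose level over the 12 libraries was most like the mean of the 7 members, among 13352 genes with a mean of at least 1 FPKM, were HLA-G (Pearson 0.970), NPIPB11 (0.963), RAPGEF1 (0.962), NPIPB4 (0.956) and NPIPB13 (0.956). All 5 were highest in the H1299 libraries, HLA-G for example at 58.8 and 65.0 FPKM there and 2.47 to 10.6 elsewhere. Over the 10 libraries without H1299 the same correlations were 0.863, 0.823, 0.789, 0.765 and 0.755. The H1299 libraries, which stand apart in the ways given above, thus raised all 5 correlations.

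Open chromatin was read as the authors' broad peaks within 3000 bp of the start site of the canonical transcript. Over the 4 lines, 17 of 28 pairs of a gene and a line had a peak in Mock and 22 of 28 after DAC. Over all genes the share with a peak was 56.9% to 64.9% in the 4 Mock libraries and 61.0% to 67.3% in the 4 DAC libraries. MT2A and MT1X had one in all 8 libraries, over the start site itself. At MT1X the strongest peak was 4.86 to 9.75-fold enriched over background, above 77.1% to 96.0% of the peaks in its own list. MT1F had a start-site peak in the 6 libraries of A549 and of those labelled CL1-5 and PC9, at 4.12 to 6.82-fold, and none in H1299.

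MT1E had a peak about 1.2 to 1.7 kb downstream of its start in all 8 libraries, so the 3000 bp window counted it everywhere. The start site used for MT1E was that of its canonical transcript, 56659693, which lies inside the gene interval beginning at 56659387. A peak over this start site was in 0 of 4 Mock and 2 of 4 DAC libraries, A549 (56659005 to 56659799, 2.64-fold) and the library labelled PC9 (56659525 to 56660289, 2.62-fold). The A549 peak also covered 56659387, and the peak in the library labelled PC9 began downstream of it. Over all genes with no start-site peak in Mock, 7.15% gained one in A549 and 7.26% in the pair labelled PC9. Both peaks were weak, above 4.63% and 9.01% of the peaks in their lists. With the 2 lines exchanged the second one belongs to CL1-5, where MT1E had 0 reads in Mock and 156 after DAC, and with the labels as given it belongs to PC9, where it had 8 and 45. Within 1000 bp of its start, MT1E gained a peak in A549 and in the pairs labelled CL1-5 and PC9. In the pair labelled CL1-5 this was the downstream peak, which began at 56660190 after DAC and at 56661161 in Mock. Its −log10 q was 4.19 after DAC and 12.4 in Mock. The share over all genes was not counted for this window.

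At the genes without a peak in Mock, 3 of 3 gained one after DAC in A549 (MT1G, MT1H and MT1M, against 18.6% of all such genes) and 2 of 3 in the pair labelled CL1-5 (MT1G and MT1H, against 17.4%). In the pair labelled PC9, 0 of 1 did (19%), and in H1299, 0 of 4 (15.8%). With the 2 lines exchanged, the gains at MT1G and MT1H belong to PC9 and CL1-5 has 0. The peak counted at MT1H was that of its neighbour MT1G, whose start lies within the window, so the 5 gains were 3 peaks. These were weak too, above 24.9% (MT1G, A549), 26.0% (MT1G, labelled CL1-5) and 5.96% (MT1M, A549) of their lists. None reached a q-value under 0.01, at which the count of gains within 3000 bp was 0. DAC libraries held more peaks than Mock in each line, 58734 and 78199 in A549, 85710 and 97584 as labelled CL1-5, 71204 and 91061 as labelled PC9 and 45354 and 63541 in H1299. When the longer list of a line was shortened to the length of the other, 2 of the 5 gains were left, MT1G and MT1H in the pair labelled CL1-5.

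In H1299 the level and the peaks went apart. MT1F, MT1G, MT1H and MT1M had no peak within 3000 bp of their start in the Mock or the DAC library, while their FPKM was the highest of the 6 lines. MT1E had no start-site peak there either, at 19.6 and 14.5 FPKM. The H1299 lists were the shortest of each treatment, and the part of that and of the H1299 read counts in this difference was not tested. Without H1299, 14 of 21 pairs had a peak in Mock and 19 of 21 after DAC, with the same 5 gains.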

How the data were processed

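Messenger RNA (12 libraries) and Omni-ATAC-seq (8 libraries) were grouped by the labelled line and treatment. Per the study's methods, the authors trimmed reads, placed them on hg19 (RSEM, bowtie2), counted GENCODE genes and deposited FPKM from DESeq2 1.24.0 with a mean normalized count per gene (a signal over all 12 libraries). The submitters' processing notes name TopHat2 2.1.1 instead. Deposited peaks were called per library with MACS2 2.2.5 after BWA 0.7.17-r1188 and carry a fold enrichment ratio, −log10 p and q values and a score per the file headers. Fold enrichment is comparable within a list only. The authors' 5 comparison columns (fold change, its error, statistic, p-value and adjusted p-value) were not used.

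Reads were recovered as FPKM times the mean normalized count over the mean FPKM, divided by the value of 1 read; 100% came out whole within 0.01. The main test was limma 3.58.1 (R 4.3.3) on log2(FPKM + 0.1), mean FPKM at least 0.1, line as block, intensity trend, Benjamini-Hochberg over all genes. Mock and DAC of a line deviated together (correlation 0.731 to 0.900 over 5 lines, at most 0.115 with another line). The code was tested on simulated data. Coding sequences were aligned with MAFFT 7.526, and start sites are those of GENCODE canonical transcripts on GRCh37, inside whose lengths all peaks fell on 23 of 23 chromosomes. FPKM used all annotated exons as length (724 to 1890 bases for the 7 genes, against 397 to 746 in the canonical transcripts), so levels of different genes depend on it.

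The 7 genes and the 7 lists of related genes were chosen with earlier results of these data known. Named genes were the 7 members, the highest and lowest of each list with MTF1 and SLC30A1, and the 5 genes most like the members over 12 libraries. Alternatives were the pseudocount, filter, scaling, trend, block, lines, voom on reads, peak threshold, window, number of peaks and labels. Those added after seeing the data were the peak over the start site, the canonical length and leaving out H1299 from the counts within lines and of peaks. Intervals are exact (95%) and cover counting error only, since duplicate reads are not independent molecules.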

Additional observations from a re-analysis of the deposited data

Results flagged for a closer look

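Among 26 sets of values compared (each gene's level in 6 Mock and 6 DAC libraries, its change in 6 lines, the summed level and its change, and the number of promoters with a peak in 4 lines), 3 had 1 line far from the others, in each case H1299. In Mock, MT1G was at 5.66 on the log2(FPKM + 0.1) scale in H1299 and at most 2.19 in the other lines. MT1H was at 4.84 in Mock H1299 against -3.32 in the other 5, which is the value of 0 reads, and at 4.10 in DAC H1299 against at most -2.65. Chance alone marks about 1 set in 20 where values do not repeat. That rate does not apply to the MT1H sets, whose values outside H1299 lie at 0 reads or, in DAC PC9, 1 read. The H1299 libraries also differ from the rest in depth, in their even read numbers and in their processed pseudogene reads, and the part of these in the high MT1G and MT1H values was not tested.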

How the results depend on the processing

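The number of metallothionein genes past the threshold was 0 in every fit run, with 0 to 4 at an unadjusted p under 0.05. The number of all genes called, 27 with the line as block, was 53 with H1792 added, 10 with no replicate block, 0 with a pseudocount of 1, 2 with no filter, 17 after quantile normalization, 6 with no trend, 179 with limma voom on reads, and 0 to 23 with 1 line left out (0 without A549 or CL1-5, 5 without CL1-0 and 12 without PC9). Dropping the block changed no call on a metallothionein gene. Rescaling to a common sum moved the median difference of all genes from 0.07 to 0.17. The estimate of MT1F, near 0, became 0.15 with H1792 added, 0.10 after rescaling and -0.23 to 0.17 with 1 line left out, and that of MT1H became 0.41 with a pseudocount of 0.01. Gene and line pairs at 2-fold higher numbered 5, and 3 with a pseudocount of 1. After rescaling, MT1F in PC9 also had a ratio above 2-fold (2.12). Those at 2-fold lower numbered 3, and 1 after rescaling (MT2A in H1299, with both A549 pairs lost), under which the summed level of H1792 turned to a log2 ratio of -0.0673 (from 0.10). Promoters that gained a peak within 3000 bp numbered 5, and 0 at a q-value under 0.01 and 2 with equal peak numbers. With a window of 1000 bp they numbered 6. The 3000 bp window did not count the new MT1E peaks, of which that over the start in the library labelled PC9 was under a q-value of 0.01. Mock promoters with a peak numbered 17, and 11 with a peak over the start site. The cause of these differences was not tested. Depth limits MT1H, MT1M and MT1E in lines with 0 to 8 reads.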
